A study of Mus musculus with 12 samples.

Results

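The miR-29 family is represented in this series by 6 quantitative PCR assays, among the 513 miRNA assays for which the main table holds values. They were chosen by name, as every assay for miR-29a, miR-29b or miR-29c including the star forms: mmu-miR-29a, mmu-miR-29b, mmu-miR-29c, mmu-miR-29a*, mmu-miR-29b* and mmu-miR-29c* (mmu, for Mus musculus, is left out below). All 6 were detected (threshold cycle, Ct, below 35) in all 12 samples, so none of the values of these 6 assays rests on an undetected well. The test over all assays below also took in some that were not detected in every sample. The samples were 6 partially ligated left carotid arteries and 6 untreated right carotid arteries of female apoE-/- mice, a strain that develops atherosclerosis. Both groups thus shared the apoE deficiency, the labelled age of 6 to 8 weeks and a high-fat diet of 6 weeks with 21% fat and 0.15% cholesterol. The labelled age is not read here as the age at sampling. In the left artery the outflow branches other than the superior thyroid artery had been closed, which lowers and disturbs flow, and the labels call the left arteries atherosclerotic and the right ones not. The series text gives 6 mice, but which left and right arteries came from the same mouse is not given, and whether arteries were pooled is not stated. The question put to these samples is whether disturbed flow with plaque changes the miRNAs of the vessel wall. Every ligated artery was a left one and every control artery an untreated right one. Side, surgery, flow and plaque thus cannot be told apart in the differences below.

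miRNAs of the miR-29 family are repressors of extracellular matrix genes. Their guide strands pair with sites in the messages of many collagens, of elastin and of fibrillin, and transforming growth factor beta lowers them in fibroblasts of several organs. In heart and vessel wall, lower miR-29 is known from fibrosis, and its inhibition has been used to raise matrix in models of aneurysm. Each hairpin gives a guide strand, loaded into the silencing complex, and a passenger strand, here the star form, which is usually degraded.

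The guide and passenger strands are shown because the family is defined by the guide seed. Also, the only family assay that passed the main test below, miR-29c*, measures a passenger strand. Sequences are from RefSeq (GRCm38.p6), 5′ to 3′, matched by name, with the seed (bases 2 to 8) in capitals; the star assays were matched to the 5p strands.
miR-29a guide: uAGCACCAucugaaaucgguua
miR-29b guide: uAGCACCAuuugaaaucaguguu
miR-29c guide: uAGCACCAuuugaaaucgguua
miR-29a*: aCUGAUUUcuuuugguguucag
miR-29b-1 passenger: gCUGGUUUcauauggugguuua
miR-29b-2 passenger: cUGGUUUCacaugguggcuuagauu
miR-29c*: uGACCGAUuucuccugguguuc

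The 3 guides share 1 seed, and no other of the 1679 mature mouse miRNAs in the RefSeq table carried it. Counted from 1 at the 5′ end, the miR-29a guide differs from the miR-29c guide at 1 base, C10U. Over the 22 bases of the miR-29c guide, the miR-29b guide differs from it at A18G, G21U and U22A, and with 23 bases it is 1 base longer at the 3′ end. No source used here says how far each assay separates guides this alike. The passenger strands share no seed with each other or with the guides. The Mir29a and Mir29b-1 hairpins lie 275 bases apart on chromosome 6 (Mir29a at chr6:31062660-31062747 and Mir29b-1 at chr6:31063023-31063093, minus strand), outside any other annotated gene. The Mir29b-2 and Mir29c hairpins lie 426 bases apart on chromosome 1 (Mir29b-2 at chr1:195037040-195037120 and Mir29c at chr1:195037547-195037634, plus strand), within the bounds of the long noncoding RNA gene A330023F24Rik. Both pairs give the same miR-29b guide, so its assay cannot tell the loci apart, and the name miR-29b* does not say which of the 2 hairpins its passenger strand comes from.

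The samples did not form 1 even set. Samples numbered 1 to 3 and those numbered 4 to 6 separated on the first principal component, which held 43.3% of the variance over 283 assays detected in all samples. The split was noticed in the values, the deposited table has its columns in the same 2 blocks, and what the blocks are is not stated. Both sets hold 3 ligated and 3 control arteries, so each result is also given within them. The closest of the 66 pairs of samples were ligated 5 and 6, control 5 and 6, and control 4 and 5, which lay 0.33, 0.34 and 0.34 apart on average on the log2 scale. Between 330 and 357 assays were detected per ligated artery and between 317 and 341 per control artery. Below, a level is on a log2 scale, relative to the average over the 283 assays, so that 1 unit is a doubling where every PCR cycle doubles the product. Levels of different assays also depend on how well each assay amplifies.

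Of the 6 miR-29 assays, only the passenger strand miR-29c* passed the test between ligated and control arteries, with a lower level in the ligated ones. None rose, and the guides miR-29a, miR-29b and miR-29c did not pass. In the same limma test over 339 assays (adjusted p below 0.05 after Benjamini-Hochberg adjustment), 12.4% of assays were called, 7.37% higher and 5.01% lower. With 1 of 6, the share in the family was near that background. The median log2 difference was -0.19 over the 6 assays and -0.05 over all 339.

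miR-29a, the guide with the highest level of the family, was among the most abundant miRNAs of the artery. Its level in ligated arteries ran from 6.31 through a median of 6.58 to 6.79, against 5.99, 6.20 and 6.50 in control arteries. It ranked between 8 and 15 among the assays detected in a ligated artery and between 13 and 17 in a control artery, rank 1 being the lowest Ct. The groups overlapped only through control 1, which at 6.50 lay above 3 of the 6 ligated samples. The log2 difference was 0.36 ± 0.18 (SE), with a 95% interval of -0.03 to 0.74 and an adjusted p of 0.274 (limma). With samples matched by number, the ligated one was higher in 5 of 6 matches, and the differences within numbers 1 to 3 and 4 to 6 were 0.27 and 0.44. By an exact permutation test of this single assay p was 0.0108, or 0.0734 adjusted over all 339. With limma's array weights the difference was 0.43 and the adjusted p 0.0207. That fit called 51 of the 339 assays higher and 50 lower, against 25 and 17 without weights.

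miR-29c, the guide second in level, ran from 0.57 through a median of 1.33 to 2.15 in ligated arteries, against 1.07, 1.49 and 2.51 in control arteries. Its log2 difference over all samples was -0.28 ± 0.39 (SE), with a 95% interval of -1.13 to 0.58 and an adjusted p of 0.766 (limma). The sets gave different pictures of this guide. Within numbers 4 to 6 the ligated arteries had levels of 0.57 to 0.67, all below the 1.07 to 1.24 of control arteries, a difference of -0.53 with an adjusted p of 0.0284 (limma within the set, where 15.0% of assays were called lower). Within numbers 1 to 3 the ligated arteries had 1.99 to 2.15 and the control arteries 1.75 to 2.51, a difference of -0.03 with an adjusted p of 0.968. A test of whether this difference itself varied by set, which called 0.295% of the 339 assays, gave an adjusted p of 0.623 (limma), so the sets were not shown to differ.

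miR-29b, the guide made from both loci, had the lowest level of the 3 guides in most samples and the widest spread. It ran from -1.42 through a median of -0.20 to 1.10 in ligated arteries, against -1.29, -0.12 and 0.70 in control arteries. The log2 difference was 0.06 ± 0.61 (SE), with an adjusted p of 0.964 (limma) and a 95% interval of -1.26 to 1.39, wide enough to hold a doubling in either direction. Its direction was not fixed: it was -0.14 when samples were scaled to U6 and snoRNA429. Within the sets it was -0.26 for numbers 1 to 3 and 0.39 for numbers 4 to 6, where the ligated arteries had 0.83 to 1.10 and the control arteries 0.47 to 0.70. Neither passed (limma, adjusted p 0.739 and 0.0965), and the same test between sets gave an adjusted p of 0.545.

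**Figure D1:**
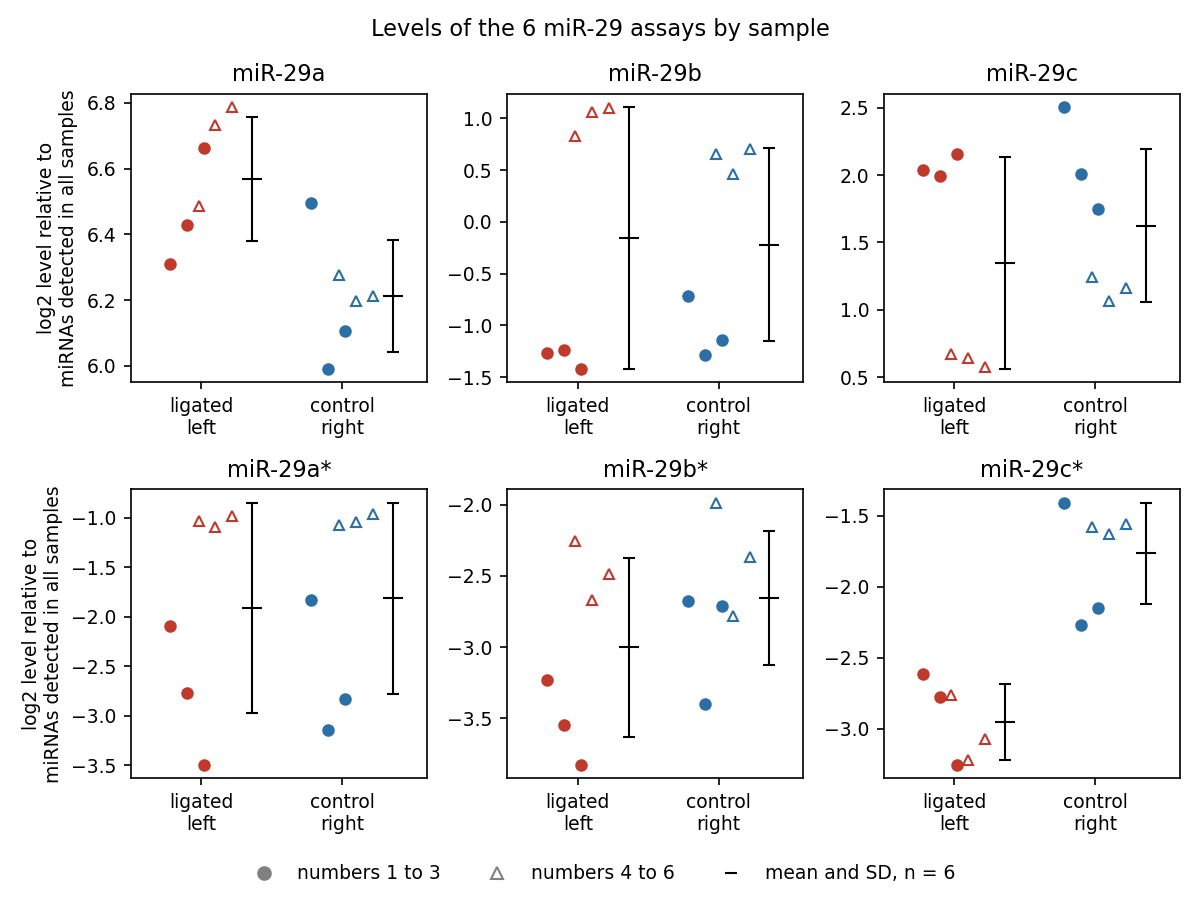
Levels of the 6 miR-29 assays in each sample (y axis, log2 level relative to the miRNAs detected in all samples; each panel has its own scale), ligated left arteries in red and control right arteries in blue. Filled circles are samples numbered 1 to 3, open triangles those numbered 4 to 6, and bars give the mean and SD of 6 samples. miR-29c* is the panel in which the groups do not overlap, while miR-29b, miR-29c and miR-29a* separate by set more than by group.

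miR-29c*, the passenger strand of the miR-29c hairpin, was lower in every ligated artery than in any control artery. Ligated samples 1 to 3 had levels of -2.62, -2.77 and -3.26, and control samples 1 to 3 had -1.41, -2.27 and -2.15. Ligated samples 4 to 6 had -2.76, -3.22 and -3.07, and control samples 4 to 6 had -1.58, -1.63 and -1.56. The highest ligated value, -2.62, thus lay below the lowest control value, -2.27. Over all 339 assays, groups that did not overlap were found for 7.08%, 4.72% with every ligated artery higher and 2.36% with every ligated artery lower, and in the family for this 1 of 6. The mean was -2.95 ± 0.27 (SD, n = 6) in ligated arteries and -1.76 ± 0.35 (SD, n = 6) in control arteries. miR-29c* fell by 1.19 ± 0.22 (SE) on the log2 scale, to 0.439 times the control level, with a 95% interval of -1.67 to -0.70 and an adjusted p of 0.00669 (limma). Matched by number, the ligated artery was lower by amounts between 0.51 and 1.59. That it was lower in 6 of 6 matches follows from the groups not overlapping.

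Ligated arteries held miR-29c* at ranks 231 to 258 among their detected assays, and control arteries at ranks 184 to 220, so its place in the order of a sample's own assays did not overlap between groups either. The difference was -0.94 within numbers 1 to 3, where the adjusted p was 0.405 and none of the 339 assays was called lower (limma; 13 had an unadjusted p under 0.05), and -1.43 within numbers 4 to 6, with an adjusted p of 0.00353. Between sets the difference of miR-29c* had an adjusted p of 0.750. The call stayed when any 1 sample was left out (adjusted p up to 0.0209) and in an exact permutation test (adjusted p 0.0306), which called 4.42% of all assays lower. It was lost with the scaling of the deposited value table, U6 and snoRNA429, where the difference was -1.39 with an adjusted p of 0.356, and with raw Ct, where it was -0.20 and the median of all assays moved to 0.93.

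The other passenger strands did not pass. miR-29a* ran from -3.50 through a median of -1.59 to -0.98 in ligated arteries, against -3.15, -1.45 and -0.96 in control arteries. Its log2 difference was -0.10 ± 0.56 (SE), with an adjusted p of 0.940 (limma), and its direction turned under several alternatives, among them U87 as the only reference (0.04). Within numbers 4 to 6 the ligated levels of -1.09 to -0.98 and the control levels of -1.07 to -0.96 overlapped. miR-29b* ran from -3.83 through a median of -2.95 to -2.25 in ligated arteries, against -3.40, -2.69 and -1.99 in control arteries. Its log2 difference was -0.35 ± 0.33 (SE), with an adjusted p of 0.596 (limma) and 95% bounds of -1.06 and 0.37, and it was lower in ligated arteries in 5 of 6 matches by number.

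**Figure D2:**
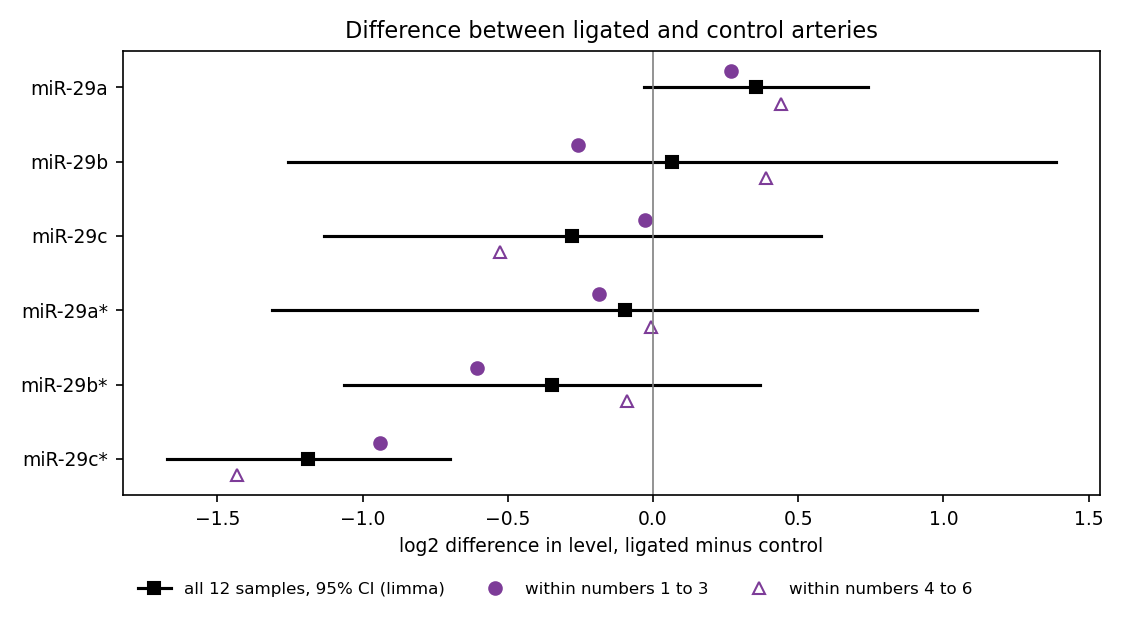
Log2 difference in level, ligated minus control arteries (x axis), for each miR-29 assay. Squares with lines are the estimates over all 12 samples with their 95% intervals, filled circles the differences within numbers 1 to 3, and open triangles those within numbers 4 to 6. The interval of miR-29c* lies below 0, at -1.67 to -0.70, and those of the other 5 assays include 0.

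The order of mean levels was miR-29a, miR-29c, miR-29b, miR-29a*, miR-29c* and miR-29b*. miR-29a lay above miR-29c in 12 of 12 samples, by 3.98 to 6.21 on the log2 scale, and miR-29b above miR-29a* in 12 of 12. The other neighbours were not separated in every sample: miR-29c lay above miR-29b in 9 of 12, miR-29a* above miR-29c* in 8 and miR-29c* above miR-29b* in 9. The 3 samples in which miR-29b lay above miR-29c were the ligated arteries 4 to 6.

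The levels of several family members differed more between the sets than between ligated and control arteries. From numbers 1 to 3 to numbers 4 to 6, the level of miR-29b was higher by 2.30 among ligated arteries and by 1.66 among control arteries. That of miR-29c differed by -1.43 among ligated and by -0.93 among control arteries, the opposite direction. miR-29a* was higher in numbers 4 to 6 by 1.76 among ligated and by 1.58 among control arteries, and miR-29b* by 1.07 and 0.55. miR-29a shifted by 0.20 among ligated and 0.03 among control arteries, and miR-29c* by -0.14 among ligated and 0.35 among control arteries, while the median absolute shift over all samples of the 283 assays detected in all samples was 0.78. The family members thus moved in different directions between the sets. After each sample was set against the mean of its own group and set, all 15 pairs of family assays had a positive correlation over the 12 samples, from 0.05 for miR-29a with miR-29b* to 0.90 for miR-29a* with miR-29c*. These deviations share the scaling of each sample and rest on 3 samples per cell, so they are a description.

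A difference between 2 assays of the same sample does not depend on how samples are scaled, and 6 such differences were compared, 3 between guides and 3 between a passenger strand and its guide. Over all 12 samples none passed an exact two-sided permutation test (p between 0.0628 and 0.623, the lowest adjusted p over the 6 being 0.377). Each of these differences also differed between the sets, and the replicate number or the set as a block changed some calls. miR-29c* minus miR-29c was -4.65, -4.77 and -5.41 in ligated samples 1 to 3, against -3.92, -4.28 and -3.90 in control samples 1 to 3. In samples 4 to 6 it was -3.44, -3.86 and -3.65 in ligated arteries, against -2.82, -2.70 and -2.72 in control arteries. Within each set the groups did not overlap, and the passenger strand was lower relative to its guide in ligated arteries by 0.91 in both. With labels permuted only within the sets (400 splits) the exact p was 0.005, the smallest these splits can give, and 0.0480 when adjusted over 48 hairpins. With same-numbered samples paired, the exact sign-flip p was 0.0312, the smallest that 6 pairs allow, and 0.0833 adjusted over 48 hairpins.

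The other passenger strands were also lower relative to their guides in ligated arteries in 6 of 6 matches by number, miR-29a* by 0.45 and miR-29b* by 0.41. This was common among hairpins. Of 48 hairpins whose star form and guide were both detected in all samples, 16 (33.3%) had a lower star minus guide difference in ligated arteries in all 6 matches and 2 (4.17%) a higher one, and the median over the 48 was -0.35. Read against these, the values of miR-29a and miR-29b lay near the middle, at ranks 22 and 23 from the most negative, and that of miR-29c at rank 8. With labels permuted within the sets, 10.4% of the 48 were called lower and none higher, with miR-29c among those lower (exact permutation, adjusted over the 48; 16 lower and 2 higher had an unadjusted p under 0.05).

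Between guides, miR-29a minus miR-29c was higher in ligated arteries in 6 of 6 matches by number. It was 4.27 to 4.51 in ligated and 3.98 to 4.36 in control samples 1 to 3, and 5.81 to 6.21 in ligated and 5.04 to 5.13 in control samples 4 to 6. The difference between groups was 0.63 over all samples (exact permutation p = 0.175, or 0.526 adjusted over the 6 differences). With labels permuted within the sets its adjusted p over the 6 was 0.0300, and in the paired exact sign-flip test it was 0.0469. The unadjusted sign-flip p was 0.0312, the smallest that 6 pairs allow. Differences between guides outside the family were not computed, so no background is given for this one. miR-29a minus miR-29b differed by 0.53 within numbers 1 to 3 and 0.05 within numbers 4 to 6 (exact permutation p within the sets 0.0300, adjusted 0.0450; paired sign-flip adjusted p 0.113), and miR-29b minus miR-29c by -0.23 and 0.92. The balance of miR-29a over miR-29c thus moved the same way in both sets, and that of miR-29b over miR-29c did not.

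**Figure D3:**
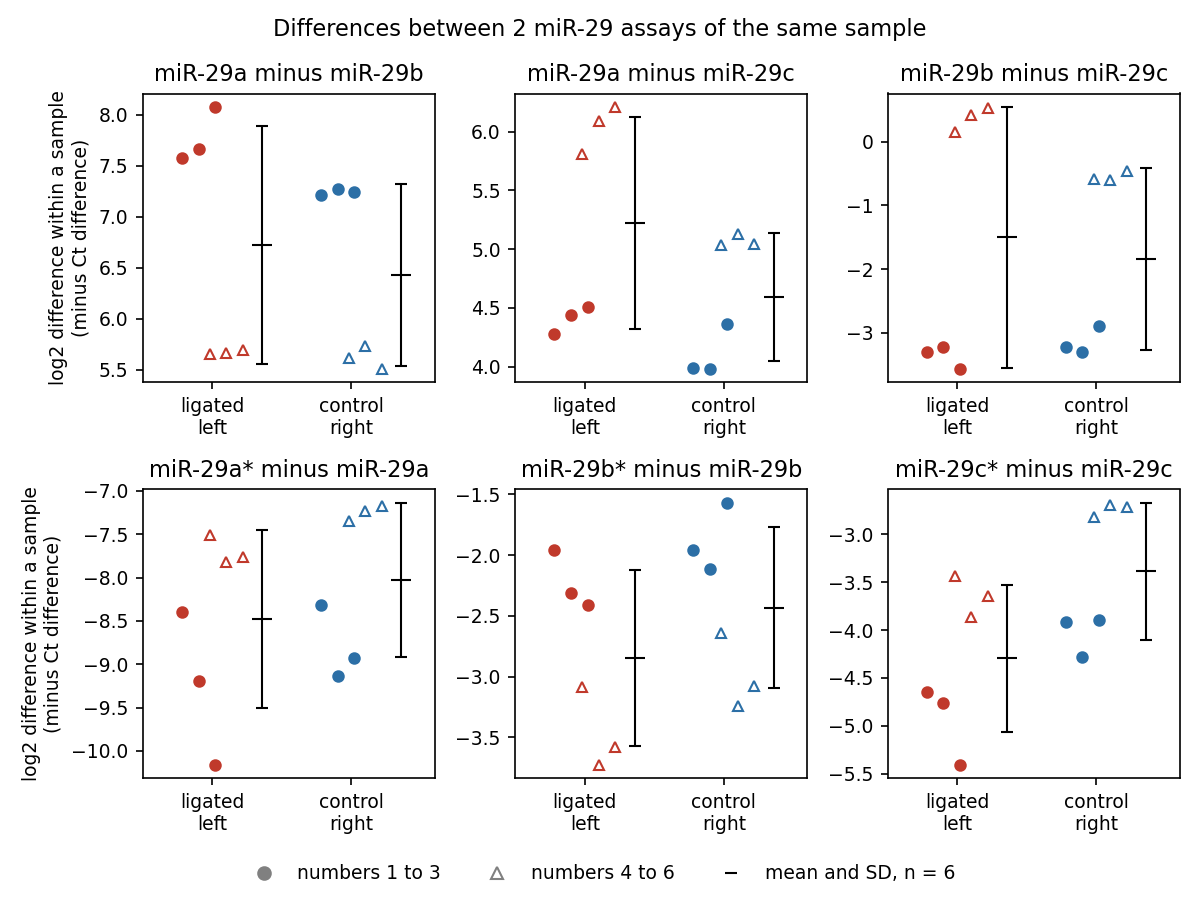
Differences between 2 miR-29 assays of the same sample (y axis, log2, each panel on its own scale) in ligated left arteries (red) and control right arteries (blue), with filled circles for numbers 1 to 3, open triangles for numbers 4 to 6, and bars for the mean and SD of 6 samples. For miR-29c* minus miR-29c the ligated samples lie below the control samples within each set, while the sets are offset from each other.

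**Figure D4:**
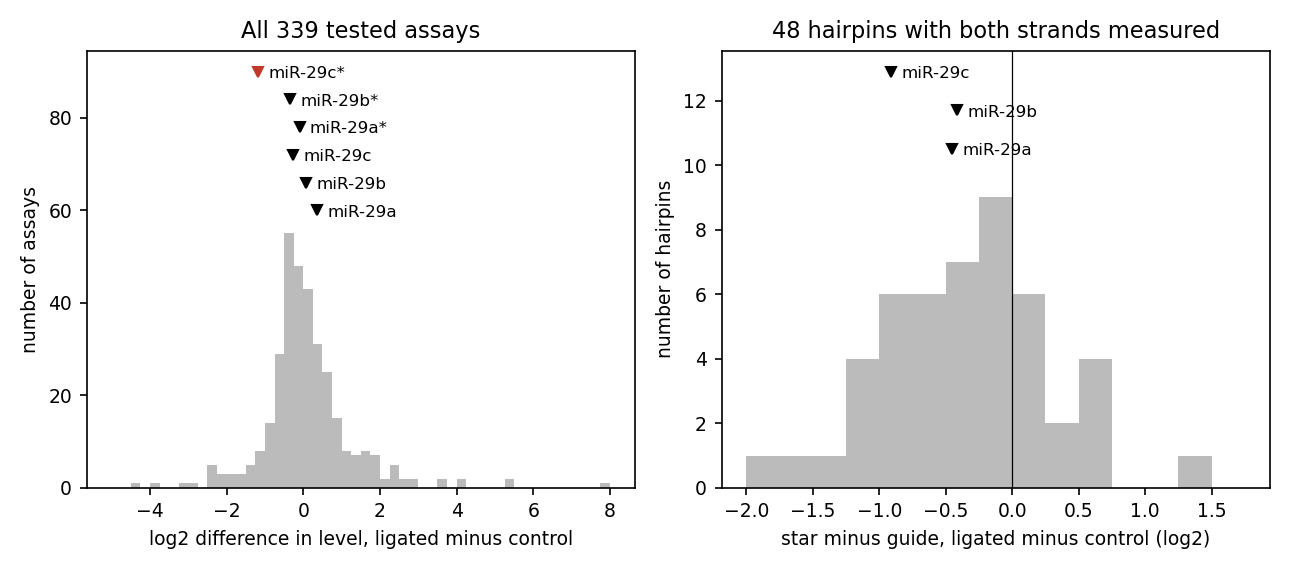
Left, number of assays (y axis) by log2 difference in level, ligated minus control (x axis), for the 339 tested assays, with triangles at the miR-29 assays and miR-29c* in red. Right, the same for the star minus guide difference of 48 hairpins, with triangles at the miR-29 hairpins. The guides lie in the bulk of the left distribution, and the right distribution has a median of -0.35.

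The assays whose levels were most like those of miR-29a over the 12 samples, among 277 outside the family detected in all samples, were miR-467a (Pearson r 0.89), miR-199a-3p (0.88), a miRNA of mesenchymal cells, and miR-339-5p (0.87). After removing the means of group and set, r was 0.71, 0.86 and 0.77. Of these, miR-467a rose in ligated arteries by 1.04 (adjusted p 0.0144, or 0.770 when scaled to U6 and snoRNA429), and miR-199a-3p and miR-339-5p had log2 differences of 0.52 and 0.55 with adjusted p-values of 0.332 and 0.251 (limma). Lowest in r with miR-29a were miR-411* (-0.85), miR-378 (-0.84) and miR-33* (-0.82). miR-378, encoded in the Ppargc1b gene of energy metabolism, fell by 2.13 (limma, adjusted p 0.00669, or 0.0928 with that scaling). miR-411* had a log2 difference of -0.86 (limma, adjusted p 0.0440, or 0.543 with that scaling). Its call was lost when any 1 of 10 samples was left out. For miR-33* the difference was -0.80, with an adjusted p of 0.142 (limma). For miR-29b and miR-29c the highest r values carry the shift between the sets. Those of miR-29b were miR-324-5p, miR-27b and miR-125b-5p, each at 0.97 and at 0.81, 0.92 and 0.91 after removing the means of group and set. Those of miR-29c were miR-125b*, miR-192 and miR-7a* at 0.97, 0.95 and 0.94, which dropped to 0.57, 0.38 and 0.14. All these r values are over samples that share scaling and sets.

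Other miRNAs known as repressors of matrix or of fibrotic signalling had 2 of 15 tested members lower and none higher, against 5.01% lower and 7.37% higher over all 339 assays, with a median log2 difference of -0.42. Both were of the miR-30 family, which targets connective tissue growth factor. miR-30c had a level of 6.64 ± 0.44 in ligated and 7.70 ± 0.23 in control arteries (SD, n = 6 each) and fell by 1.06 ± 0.24 (SE), with an adjusted p of 0.0148, or 0.304 when scaled to U6 and snoRNA429 (limma). miR-30b fell by 0.80 ± 0.23 (SE) with an adjusted p of 0.0428, a call that was lost without any 1 sample other than control 2 (limma, adjusted p up to 0.0943) and with U6 and snoRNA429 (0.706). miR-30e had a log2 difference of -0.45 ± 0.22 (SE) and an adjusted p of 0.263. miR-18a of the miR-17 cluster had a difference of 0.80 ± 0.26 (SE), with adjusted p-values of 0.0685 and, when the fit held the replicate number, 0.0495 (limma). That fit called 30 of the 339 assays higher and 22 lower. In it miR-133b, a muscle miRNA with a difference of -1.28, also passed (limma, adjusted p 0.0321, against 0.268 without the block). The counts of list members above are from the fit without the block.

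Of miRNAs reported to rise in fibrotic tissue, 3 of 7 tested members rose and none fell, against the same 7.37% and 5.01% of all assays, with a median log2 difference of 0.52. They were miR-155 (2.44), miR-21 (2.86) and miR-34a (1.83), a miRNA induced by p53. miR-34a was no longer called when control 1, 2, 3, 4 or 6, or ligated 4, 5 or 6, was left out, with an adjusted p of at most 0.0960 (limma). Scaled to U6 and snoRNA429 all 3 calls were lost, with adjusted p-values of 0.165 for miR-155, 0.335 for miR-21 and 0.658 for miR-34a (limma). miR-199a-3p, miR-199a-5p, miR-214 and miR-192 did not pass.

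Markers of some cell types, and not of others, differed between ligated and control arteries. The counts of members called below stand against 5.01% lower and 7.37% higher over all 339 assays. Contractile smooth muscle miRNAs had 3 of 5 members lower, with a summed linear level of 361 to 976 in ligated and 952 to 5622 in control arteries, which overlap at their edges. Leukocyte miRNAs had 3 of 5 members higher, with a summed level of 112 to 424 in ligated and 53.9 to 106 in control arteries. Adipose-linked miRNAs had 3 of 3 members lower, with sums of 22.7 to 64.6 in ligated and 77.8 to 147 in control arteries. For fibroblast and mesenchymal miRNAs none of 3 passed, and the sums of 17.0 to 48.5 in ligated and 13.4 to 37.4 in control arteries overlapped. Among the members called, the call was lost without any 1 of 6 samples for miR-1, 8 for miR-142-3p, 10 for miR-342-3p and 3 for miR-193b, with limma's adjusted p reaching 0.101. Scaled to U6 and snoRNA429, the 3 smooth muscle calls were lost (limma, adjusted p 0.101 for miR-145, 0.165 for miR-143 and 0.274 for miR-1). With that scaling the leukocyte calls of miR-142-5p (0.335) and miR-142-3p (0.658) and the adipose calls of miR-378 (0.0928) and miR-193b (0.115) were lost too, and miR-342-3p (0.0231) and miR-365 (0.0300) kept theirs. Of the endothelial (2 tested), neuronal (3) and red blood cell (1) markers none passed, and of 4 striated muscle markers miR-1 alone was lower. The smooth muscle miRNAs miR-145 and miR-143, which check the labelled tissue, had mean levels of 9.12 and 5.37 in ligated arteries and 11.51 and 7.49 in control arteries. The part of these shifts in the level of miR-29c* was not tested. In whole arteries, fewer cells of a type and less RNA per cell cannot be told apart.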

How the data were processed

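RNA was isolated with the mirVana kit, per the labels' protocols. The deposited main table holds raw Ct values, per the file headers, with 40 for a well that did not amplify; no source used here names the instrument or its threshold settings. The deposited value table was matched, to within 5e-05 cycles over 513 rows, by subtracting the U6 and snoRNA429 average from Ct. Another table, of 4 miRNAs outside the family in a separate run, was not used. Repeated control rows were averaged. Wells at a Ct of 35 or more were set to 35, the 283 miRNAs found in all 12 samples gave the average Ct to which a sample was scaled, and the test took assays found in 4 or more of the 6 samples of either group.

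Minus scaled Ct was fitted with limma 3.58.1 in R 4.3.3, with a term for group alone and p-values adjusted by Benjamini-Hochberg over 339 assays, after the fit had been tested on simulated data. Within-sample differences were tested by exact two-sided permutation over 924 splits. Replicates are separate samples by the labels. The series text gives 6 mice, but the fit with a term for group alone and the permutation over 924 splits treated the 12 samples as independent. Their p-values measure the spread between samples, not the spread between mice of a left to right difference. Samples were matched or paired by number only where named. Once group means were removed, samples of the same number correlated in every pair (r 0.25 to 0.70), which alone does not show a pairing. The shift between numbers 1 to 3 and 4 to 6 enters these values: with the means of group and set removed, an addition after seeing the data, r ran from -0.11 to 0.31, and 4 of 6 ligated samples correlated best with their own number when group means alone were removed. The family, the lists, the sets of numbers 1 to 3 and 4 to 6 and the tests were chosen with earlier results of these data known. Named miRNAs are all family assays, the 3 highest and lowest in r with each guide (the lowest shown for miR-29a alone), and list members with the lowest p; miR-133b, miR-192, miR-199a-5p and miR-214 were named after their values were seen. Alternatives covered scaling, detection limit, filter, undetected wells, blocks, sets, weights and left-out samples; single control RNAs as reference were added after seeing the data, as was the comparison over 48 hairpins.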

Additional observations from a re-analysis of the deposited data

How the results depend on the processing

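Log2 differences of the family are ligated minus control. miR-29c* stayed lower under all 36 alternatives (-1.72 to -0.20) and kept its call in 29, the replicate block among them (adjusted p 0.0112); without 1 sample it ran from -1.29 to -1.12. It was not called with raw Ct (-0.20), the U6 and snoRNA429 mean or the deposited value table (-1.39 each), U6 (-1.50), snoRNA429 (-1.28) or Y1 (-0.28) as the only reference, or within numbers 1 to 3 (-0.94). Raw Ct gave miR-29a 1.34 (called), and turned miR-29a* to 0.89, miR-29b* to 0.64 and miR-29c to 0.71. Array weights gave miR-29a 0.43 (called) and miR-29a* 0.016. snoRNA135 alone gave miR-29a -0.18, miR-29b -0.47 and miR-29b* -0.89 (called). Y1 alone gave miR-29a* 0.81, miR-29b* 0.56 and miR-29c 0.63, and miR-29a* was 0.12 with snoRNA202 and 0.039 with U87. miR-29b was -0.14 with U6 and snoRNA429 and in the value table, -0.018 with the median, -0.25 with U6, -0.028 with snoRNA429 and -0.26 within numbers 1 to 3. miR-29c was -0.53 within numbers 4 to 6 (called). Leaving out 1 sample gave -0.36 to 0.22 for miR-29a*, 0.31 to 0.41 for miR-29a, -0.50 to -0.18 for miR-29b*, -0.19 to 0.32 for miR-29b and -0.44 to -0.10 for miR-29c, none of them called. The replicate block changed no call of the 6 assays.

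Over all assays, 25 were called higher and 17 lower. The counts were 57 and 0 with raw Ct, 7 and 3 with U6 and snoRNA429, 8 and 4 in the value table, 50 and 51 within numbers 4 to 6, 51 and 50 with array weights, 5 and 0 in numbers 1 to 3 alone, 6 and 4 with U6, 14 and 53 with snoRNA135, and 6 and 2 with snoRNA429. The lower count was 30 with the sets as a block, 8 with snoRNA202 and 0 with Y1. Leaving out 1 sample gave 15 to 26 higher, the lowest without control 6, and 10 to 20 lower, the lowest without control 3.

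Of the within-sample differences, the paired exact sign-flip test, the replicate block of these values, called miR-29a minus miR-29c (0.63), miR-29a* minus miR-29a (-0.45), miR-29b* minus miR-29b (-0.41) and miR-29c* minus miR-29c (-0.91), each at an adjusted p of 0.0469 over the 6. Permutation within the sets called miR-29a minus miR-29b (0.29), miR-29a minus miR-29c (0.63), miR-29b* minus miR-29b (-0.41) and miR-29c* minus miR-29c (-0.91), at adjusted p-values of 0.0300 to 0.0450. Adjusted over the 48 hairpins instead, the sign-flip test called 0 of 48 (16 lower and 2 higher had an unadjusted p under 0.05), with 0.0833 for each of the 3 passenger strands, and permutation within the sets gave 0.0480 for miR-29c*, 0.0847 for miR-29b* and 0.222 for miR-29a*. Without 1 sample, miR-29b minus miR-29c ran from -0.062 to 0.76, and 0 of the 6 were called. The cause of these changes was not tested. The 6 samples a group limit the precision.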
